A study of Mus musculus with 2 samples.

Results

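The genes that move ions, phosphate and water across the small intestinal epithelium were compared between wild-type mice (miR-215+/+) and mice lacking the microRNA miR-215 (miR-215-/-). Members were chosen by symbol: all listed genes of the solute carrier families SLC4, SLC8, SLC9, SLC12, SLC13, SLC20, SLC24, SLC26 and SLC34, the sodium pump subunits, the CLC chloride channels and the aquaporins, with 12 single genes of calcium absorption, chloride secretion, potassium recycling and sodium channels. This gave 96 of the 23284 genes in the tables. Gene expression was measured by sequencing of polyadenylated RNA from small intestinal epithelial cells, with 1 library for each genotype. No difference below therefore has a replicate check and no p-value was computed; "higher" and "lower" mean in the knockout, and paired values are given with wild type first. The labels leave out strain, sex, age, the number of animals behind a library, the way the epithelium was isolated and the deleted part of the locus.

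Absorptive enterocytes take up sodium, chloride, phosphate and calcium through transporters of the brush border, driven by the sodium gradient that the sodium pump of the basolateral membrane maintains. Crypt cells secrete chloride through CFTR at the apical membrane, fed by the basolateral cotransporter NKCC1 and by potassium channels that recycle potassium. Water follows these solutes, in part through aquaporins. miR-215 is a microRNA abundant in the gut epithelium, and it represses transcripts whose 3' UTR pairs with its seed.

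Levels are in FPKM, which divides the fragments of a gene by its length and by library depth and so lets genes be set side by side. At 1 FPKM, a 2 kb transcript corresponded to an estimated 17.4 fragments in wild type and 18.1 in the knockout, as read from the steps between low values. Folds are ratios of the FPKM and carry a 95% Clopper-Pearson interval from the estimated fragment numbers, which covers counting error only and not variation between animals or preparations. Log2 ratios were taken after adding 1 FPKM to each value. The comparison kept 11504 genes, those reaching 1 FPKM in either library. Their median log2 ratio was -0.05, and multiplying the knockout values to equal sums moved it to 0.07. The summed FPKM were 750631 and 683884. Gene coordinates are those of GENCODE M21 on GRCm38, the assembly also called mm10. Both libraries held the epithelial markers, 9 of 9 kept summing to 10839 FPKM in wild type and 11670 in the knockout. Mir215 itself, at 137 and 0 FPKM, is 112 nt long, too short for a fragment estimate, and these libraries of polyadenylated RNA do not measure the mature microRNA. Mir192, whose mature product has the same seed, was listed at 0 in wild type and at 387 FPKM in the knockout. At 89 nt it is also too short for a fragment estimate, so the number of fragments behind this value is not known.

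Seed matches in the members are shown first, because a microRNA pairs with its target transcripts through the seed. The mature microRNAs miR-215-5p (chr1:185313610-185313630, plus strand) and miR-192-5p (chr19:6264857-6264877, plus strand) are given from RefSeq on GRCm38.p6, with bases 2 to 8, the seed, in capitals; the seed is the same in both.
mmu-miR-215-5p: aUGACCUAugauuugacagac
mmu-miR-192-5p: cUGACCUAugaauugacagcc
The matching heptamer, TAGGTCA in the sense of the transcript, was searched in the longest annotated 3' UTR of each gene. It occurred in 10 of the 96 members and in 6 of the 47 that were kept, 12.8%, against 6.85% of all genes kept with a 3' UTR. The median length of the 3' UTR was 1172 nt for the members kept and 1095 nt for all genes kept. The windows of 30 bases around the match are printed for 5 of the 6, on GRCm38 and 5′ to 3′ along the transcript, with the heptamer in capitals.
Slc12a7, chr13:73816105-73816134, plus strand: tgggcattctgctctgTAGGTCAtggtttg
Kcne3, chr7:100184604-100184633, plus strand: aaactggtaagaggatTAGGTCAttattag
Clcn3, chr8:60911554-60911583, minus strand: cctttgaatcactgggTAGGTCAcagccat
Aqp1, chr6:55348022-55348051, plus strand: gggttgcatttagctcTAGGTCAttccatt
Slc4a5, chr6:83304213-83304242, plus strand: aactcttaagtcacatTAGGTCAaccaaat
Of these 6 genes, 3 had log2 ratios above 0 and 3 below 0, and none was 1.5-fold apart in the deposited values. Of the 753 genes kept with the heptamer, 34 were 1.5-fold lower and 35 were 1.5-fold higher. Slc12a7 was at 0.51, Slc26a2, the sixth, at 0.26, Kcne3 at 0.18, Clcn3 at -0.08, Aqp1 at -0.22 and Slc4a5 at -0.35. Under 3 rescalings of the knockout library Slc12a7 was 1.5-fold higher (log2 ratio 0.61 to 0.69) and Clcn3 changed sign. The median was 0.05 for the 6 members with the heptamer and -0.06 for the 41 without it, and over all genes kept it was 0.00 and -0.06. A match of 7 bases is a description of the sequence and does not show that the site is used.

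Of the 96 members, 47 reached 1 FPKM in at least 1 library, 30 were detected below it and 19 were listed at 0 in both libraries. They summed to 4269 FPKM in wild type and 3878 in the knockout, 0.569% and 0.567% of each library's sum. Among the 47, 8 members were at least 1.5-fold lower on the log2(FPKM + 1) scale, where 7.26% of all genes kept were, and 0 were at least 1.5-fold higher, where 4.83% were. The share of the members that were 1.5-fold lower was 17.0%. At 2-fold, 1 member was lower (background 2.04%) and 0 were higher (background 1.34%). In these bulk samples fewer cells of a type and less RNA per cell cannot be told apart. The 8 were the aquaporins Aqp3, Aqp11 and Aqp8, the phosphate cotransporters Slc34a2 and Slc34a3, the calcium-binding protein gene S100g, the bicarbonate cotransporter Slc4a7 and the endosomal chloride-proton exchanger Clcn5. The median log2 ratio of the 47 was -0.06, close to that of all genes, with 25% of members below -0.31 and 25% above 0.16, against -0.27 and 0.18 for all genes kept. The counting interval of the fold lay below 1 for 18 members (38.3%, background 30.3%) and above 1 for 9 (19.1%, background 19.5%). In all, 20 members were above 0 (42.6%, background 44.0%) and 27 below 0 (57.4%, background 56.0%). With the knockout scaled to equal sums, 2 members were 1.5-fold higher (7.80% of all genes) and 7 were 1.5-fold lower (4.90%). Over the deposited values and 3 rescalings of the knockout library, 20 members stayed above 0, 19 stayed below 0 and 8 changed sign. Each rescaling raised the knockout values, by factors of 1.075 to 1.136. The 20 members above 0 therefore could not change sign, and only those below 0 were put to a check.

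**Figure D1:**
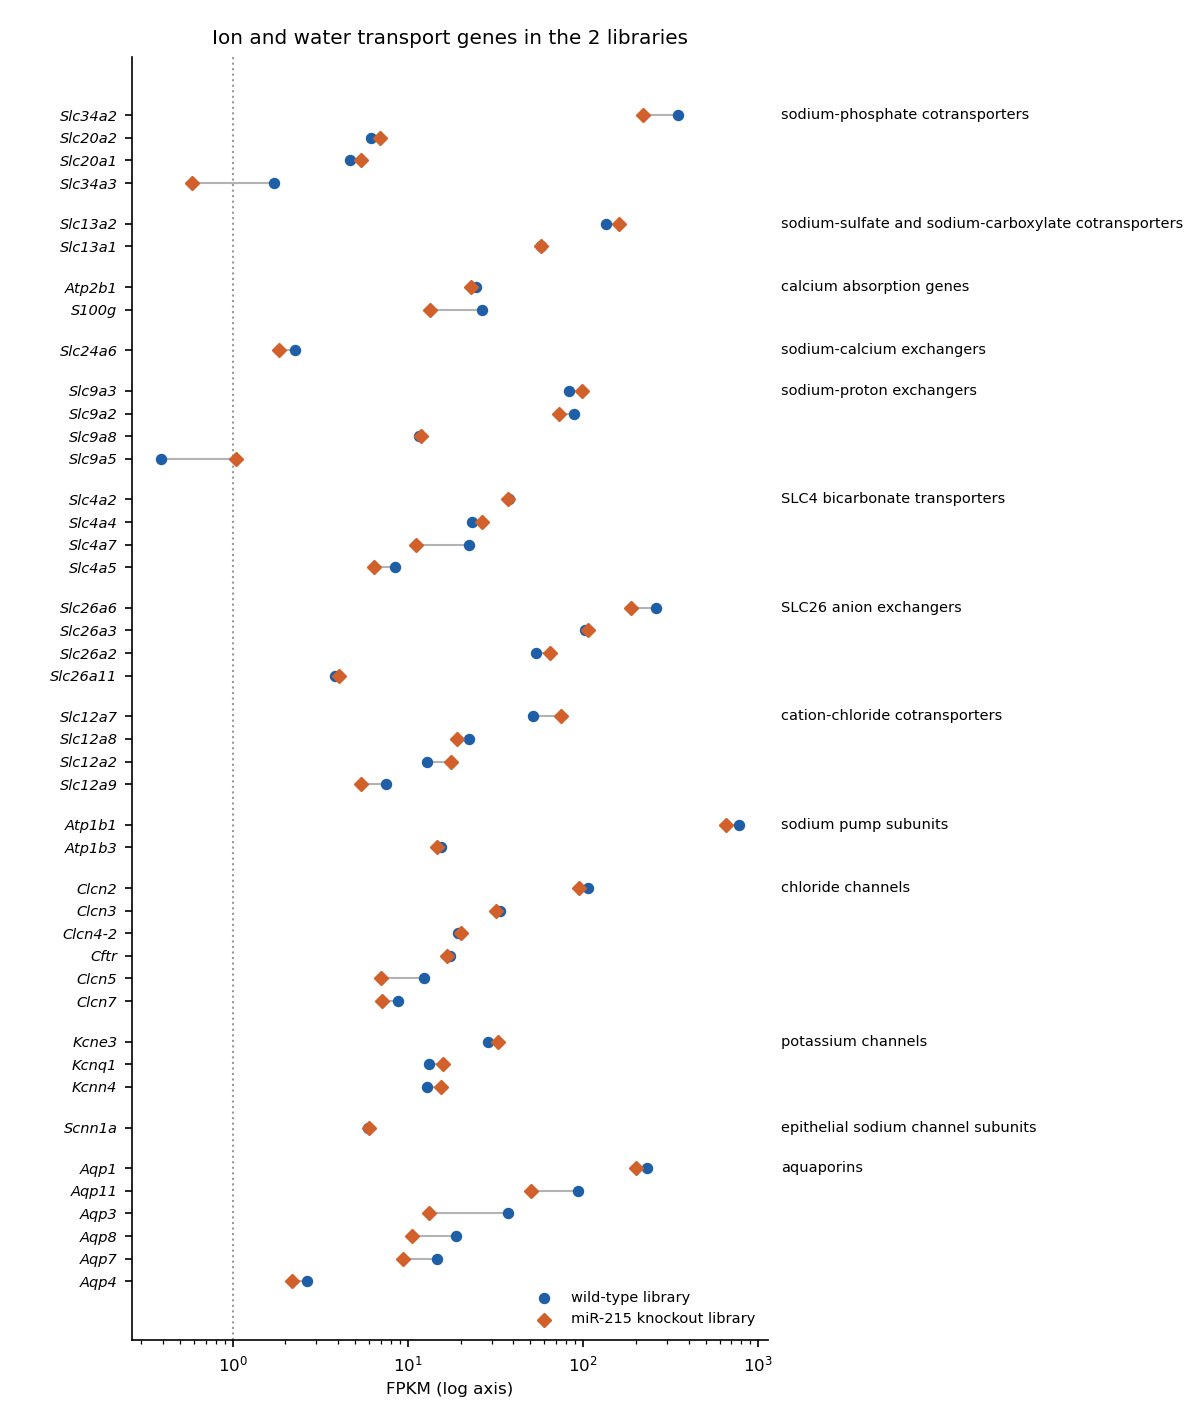
FPKM on a log axis of 43 of the 47 transport genes kept, 1 row per gene and grouped by role; circles are the wild-type library, diamonds the knockout library, a grey line joins the 2 values and the dotted line marks 1 FPKM. Of the genes drawn Atp1b1 stands highest, and the longest joins to the left, toward a lower knockout value, belong to Slc34a3, Aqp3, Aqp11, S100g and Slc4a7.

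**Figure D2:**
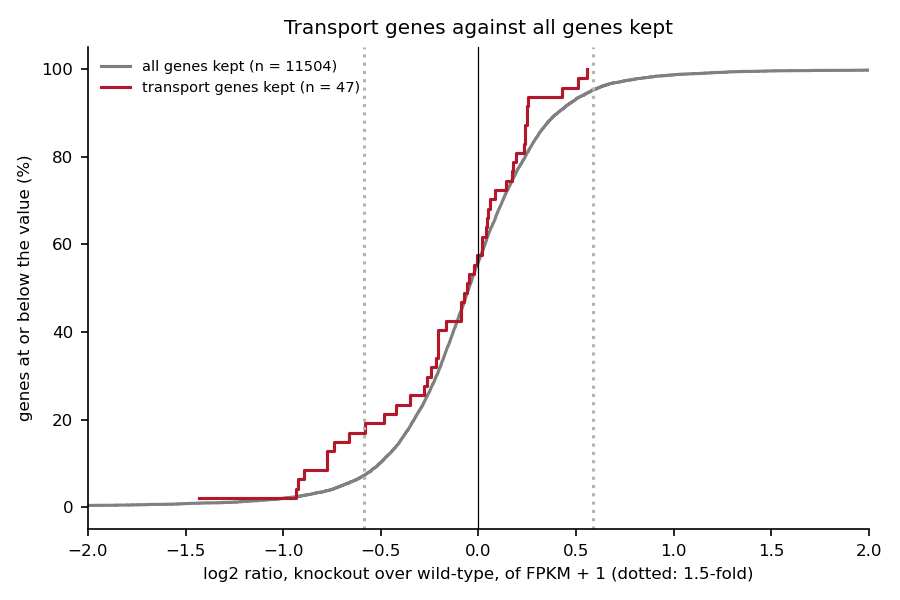
Cumulative share, in percent, of the 47 transport genes kept (red) and of the 11504 genes kept (grey) at or below each log2 ratio of knockout over wild-type; the dotted lines mark 1.5-fold, and values of all genes beyond 2 on the log2 scale are not drawn. The red curve lies above the grey one at the left dotted line (17.0% against 7.26%) and reaches its end before the right one.

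Phosphate cotransporters were read first. Slc34a2 encodes NaPi-IIb, the sodium-phosphate cotransporter of the small intestinal brush border, which in mice is most abundant in the ileum (chr5:53038081-53071664). It was at 348 FPKM in wild type and 219 in the knockout, 1.59-fold lower (interval 1.54 to 1.63), from about 13364 and 8753 fragments. The knockout value was thus below the wild-type value by far more than counting error. With the knockout values scaled to equal sums the log2 ratio of Slc34a2 moved from -0.66 to -0.53 and it was no longer 1.5-fold apart. Slc34a3, the related cotransporter known from the kidney (chr2:25228898-25234364), was at 1.72 and 0.589 FPKM, 2.93-fold lower (wide interval, 1.44 to 6.07), since it rested on about 33 and 12 fragments. The widely expressed phosphate transporters of the SLC20 family lay slightly on the other side of 1, within counting error. Slc20a2 was at 6.18 and 6.93 FPKM (fold 1.12, interval 0.925 to 1.36) and Slc20a1 at 4.69 and 5.41 (fold 1.15, interval 0.918 to 1.45). In the wild-type library Slc34a2 stood 56.3-fold above Slc20a2 in FPKM, and in the knockout library 31.7-fold. Slc34a1, the main renal cotransporter, rested on about 4 and 1 fragments.

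Other genes of phosphate handling came from a list of 16 genes outside the families, 15 of them in the tables and 10 kept. Of these 10, 7 were below 0 and 3 above (6 and 4 with equal sums), 2 were 1.5-fold lower and 0 were 1.5-fold higher, and the median log2 ratio was -0.37. Over all genes kept, 56.0% were below 0 and 44.0% above, 7.26% were 1.5-fold lower and 4.83% were 1.5-fold higher. These shares are also the background for the lists described below. The intestinal alkaline phosphatase gene Alpi was at 878 and 616 FPKM (fold 0.702, interval 0.686 to 0.718), and Akp3, a second intestinal alkaline phosphatase gene, at 67.5 and 17.9 (fold 0.266, interval 0.231 to 0.304). The pair are similar in sequence, and the labels do not say how fragments that match both were divided. Enpp3, an ectonucleotide pyrophosphatase, was at 408 and 281 FPKM. Ip6k2, an inositol hexakisphosphate kinase, was at 17.3 and 25.3 FPKM.

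Calcium absorption was represented by 3 genes. S100g encodes calbindin-D9k, the vitamin D-dependent protein that carries calcium through the enterocyte (chrX:162961992-162964599). Its level was 26.4 FPKM in wild type and 13.4 in the knockout, 1.96-fold lower (interval 1.29 to 2.96). The transcript is only 480 nt long, so these values rested on about 71 and 38 fragments. Atp2b1, the calcium pump of the basolateral membrane, was at 24.5 and 23.0 FPKM (fold 0.938, interval 0.875 to 1.01), a difference within counting error whose sign changed with rescaling. Trpv6, the apical calcium channel, was listed at 0 in both libraries. Of 19 further listed genes of vitamin D and calcium handling, 12 were kept, 8 of them below 0 and 4 above (7 and 5 with equal sums), none 1.5-fold apart, with a median of -0.29. The vitamin D receptor gene Vdr was at 142 and 102 FPKM (fold 0.715, interval 0.687 to 0.744), and its target Slc30a10, a manganese exporter, at 11.0 and 7.6. The 24-hydroxylase gene Cyp24a1, which the receptor induces, was listed at 0 in both. On the other side, the tight junction gene Cldn2 was at 22.0 and 30.4 FPKM (fold 1.38, interval 1.24 to 1.54).

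Markers of the absorptive enterocyte, the cell type of the villus that carries Slc34a2 and S100g, were below 0 in 12 of 12 kept genes, with a median of -0.24 and summed values of 67776 and 59513 FPKM. All 12 averaged over 100 FPKM, a range in which 869 of 1123 genes of any kind were below 0 with a median of -0.19. The 8 members in that range had the same median, -0.19, with 5 below 0. With knockout values scaled to equal sums the median of the 12 markers was -0.11 and 2 were above 0. The brush border metalloprotease gene Mep1a was at 380 and 244 FPKM and the most abundant marker, Apoa1, at 18904 and 17185. Among the 9 epithelial markers 4 were above 0 and 5 below, with a median of -0.02. They included the intestinal transcription factor gene Cdx2, the only one 1.5-fold apart, at 124 and 64.8 FPKM (fold 0.522, interval 0.488 to 0.558). Krt20, of the same list, was higher at 1721 and 2287 FPKM. Markers of the proximal small intestine, where S100g is highest, were below 0 in 7 of 7 (5 with equal sums). They summed to 14533 and 13435 FPKM. Apoa4, also counted among the enterocyte and villus tip markers, made up most of these sums, at 13536 and 12581. Gata4 was at 51.0 and 34.6 FPKM and Slc40a1 at 6.56 and 3.58. Markers of the distal small intestine, where Slc34a2 is highest, were below 0 in 4 of 6 (3 with equal sums), with summed values of 5407 and 4368 FPKM; Fabp6 was at 4354 and 3554 and Fgf15, above 0, at 13.7 and 20.9. No enterocyte, proximal or distal marker was listed at 0 in both libraries. Whether the lower values of Slc34a2, S100g and the aquaporins described further on follow these markers was not tested.

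Exchangers of sodium and calcium were low. Of 9 genes of the SLC8 and SLC24 families, only Slc24a6, now Slc8b1, the mitochondrial sodium-calcium exchanger, reached 1 FPKM, at 2.28 and 1.84 (fold 0.808, interval 0.541 to 1.21). The other 8 were at or below 0.227 FPKM, and 3 of them were listed at 0 in both libraries.

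Sodium-proton exchangers of the SLC9 family absorb sodium in exchange for protons, and NHE3, encoded by Slc9a3, carries most of this in the small intestine. Slc9a3 (chr13:74121457-74169442) was at 82.6 FPKM in wild type and 98.4 in the knockout, 1.19-fold higher (interval 1.12 to 1.27). Slc9a2, the other brush border exchanger (chr1:40680574-40769273), was at 88.5 and 72.8 FPKM, 1.21-fold lower (interval 1.16 to 1.27). Their order thus differed: Slc9a3 was at 0.933 of Slc9a2 in the wild-type library and at 1.35-fold of it in the knockout library. Slc9a8, an exchanger of the brush border and of intracellular membranes, was at 11.5 and 11.9 FPKM, with a counting interval that held 1. Slc9a5, best known from brain, had the highest log2 ratio of all 47 members at 0.56, but it lay at 0.389 and 1.04 FPKM and rested on about 12 and 35 fragments (fold 2.69, interval 1.42 to 5.94). The 4 family members that were not kept were at or below 0.451 FPKM.

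Scaffolds and kinases that act on NHE3 differed in both directions. Of 14 kept genes of that list, 7 were above 0 and 7 below, with a median of 0.05 (0.17 with equal sums, where 9 were above 0). Of these 14, 3 were 1.5-fold higher (background 4.83%) and 2 were 1.5-fold lower (background 7.26%). Sgk1, a kinase that activates NHE3 and the epithelial sodium channel and is induced by glucocorticoids, was at 217 FPKM in wild type and 503 in the knockout (fold 2.31, interval 2.24 to 2.39). Its relative Sgk3 was at 3.96 and 1.14 FPKM (fold 0.288, interval 0.197 to 0.412). The brush border scaffold gene Pdzk1 was at 403 and 260 FPKM (fold 0.645, interval 0.624 to 0.666), while Slc9a3r1, which encodes the scaffold NHERF1 and was the most abundant of the list, was at 1076 and 992.

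Bicarbonate transporters of the SLC4 family divided. Slc4a7 encodes the electroneutral sodium-bicarbonate cotransporter NBCn1, a basolateral base loader (chr14:14702279-14799940). It was at 22.2 FPKM in wild type and 11.1 in the knockout, 1.99-fold lower (interval 1.84 to 2.17) from about 1700 and 885 fragments. Slc4a4, the electrogenic sodium-bicarbonate cotransporter NBCe1 (chr5:88886818-89239653), stood near Slc4a7 in the wild-type library at 23.1 FPKM and was at 26.6 in the knockout library (fold 1.15, interval 1.04 to 1.27). The FPKM ratio of Slc4a7 to Slc4a4 was 0.959 in wild type and 0.419 in the knockout. Slc4a2, the chloride-bicarbonate exchanger AE2 and the most abundant of the family, was at 37.7 and 37.1 FPKM (fold 0.985, interval 0.916 to 1.06), with a sign that rescaling changed. Slc4a5, another electrogenic cotransporter, was at 8.41 and 6.39 (fold 0.760, interval 0.654 to 0.884). Slc4a1, the erythrocyte anion exchanger, was listed at 0 in both libraries. The red blood cell gene Hba-a1 was lower in the knockout library, at 28.6 and 5.33 FPKM.

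Anion exchangers of the SLC26 family serve chloride, bicarbonate, oxalate and sulfate. Slc26a6, the exchanger PAT1 that secretes oxalate and bicarbonate (chr9:108853283-108913049), was at 261 FPKM in wild type and 187 in the knockout, 1.40-fold lower (interval 1.35 to 1.45). Slc26a3, the chloride-bicarbonate exchanger DRA that couples to NHE3 in salt absorption (chr12:31390871-31473917), was at 102 and 106 FPKM (fold 1.03, interval 0.978 to 1.09). Slc26a6 therefore stood 2.55-fold above Slc26a3 in the wild-type library and 1.76-fold above it in the knockout library. The sulfate transporter gene Slc26a2 was at 53.6 and 64.3 FPKM (fold 1.20, interval 1.15 to 1.25). Slc26a11 was at 3.84 and 4.02 FPKM, and the other 6 family members did not reach 1 FPKM. The apical sodium-sulfate cotransporter gene Slc13a1 was at 57.8 and 57.4 FPKM (fold 0.994, interval 0.920 to 1.07), and rescaling changed the sign. Slc13a2, the sodium-dicarboxylate cotransporter that takes up citrate and succinate, was at 135 and 160 (fold 1.18, interval 1.13 to 1.24).

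Carbonic anhydrases, which supply bicarbonate and protons to these exchangers, were below 0 in 7 of 10 kept genes, also with equal sums (background 56.0%). Of the 10, 3 were 1.5-fold lower (background 7.26%), and the median log2 ratio was -0.31. The cytosolic enzyme gene Car2 was at 39.9 and 21.8 FPKM (fold 0.546, interval 0.477 to 0.623), Car13 at 60.1 and 43.4, and the membrane-bound Car4, the most abundant, at 117 and 97.3.

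Cation-chloride cotransporters summed to 115 FPKM in wild type and 141 in the knockout over all listed genes, with 3 of 5 kept genes above 0 and Slc12a9 and Slc12a8 below 0. Slc12a7, the potassium-chloride cotransporter KCC4 (chr13:73733094-73816754), was at 52.0 FPKM in wild type and 74.5 in the knockout, 1.43-fold higher (interval 1.36 to 1.51). Slc12a2 encodes NKCC1, the basolateral sodium-potassium-chloride cotransporter that loads secreting crypt cells. It was at 12.8 and 17.5 FPKM, 1.37-fold higher (interval 1.25 to 1.51). Slc12a8 was at 22.2 and 19.1 and Slc12a9 at 7.53 and 5.37 FPKM, both with intervals below 1. The renal cotransporter gene Slc12a1 was listed at 0 in both libraries, and Slc12a3 rested on 0 and 1 fragments. WNK kinases act on these cotransporters through Stk39 and Oxsr1. Of 8 kept genes of that list 3 were above 0 and 5 below, or 5 and 3 with equal sums, with Wnk1 at 9.28 and 14.6 FPKM (fold 1.58, interval 1.45 to 1.71), Stk39 at 7.32 and 9.85, and Oxsr1 at 20.5 and 15.1.

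Chloride and potassium channels of secretion differed little. Cftr, the cAMP-gated chloride channel (chr6:18170687-18322768), was at 17.4 FPKM in wild type and 16.8 in the knockout, a fold of 0.967 with an interval of 0.886 to 1.06 and a sign that rescaling changed. The potassium channel gene Kcnq1 was at 13.2 and 15.8 FPKM (fold 1.20, interval 1.04 to 1.38) and its partner subunit gene Kcne3 at 28.8 and 32.7 (fold 1.14, interval 0.950 to 1.35). Kcnn4, a calcium-activated potassium channel also found in lymphocytes, was at 12.9 and 15.4 (fold 1.20, interval 0.997 to 1.43). All 3 potassium channel genes were above 0, by less than 1.5-fold also under each rescaling. The rescalings only raised knockout values, so they could not change these signs. The counting intervals of Kcne3 and Kcnn4 held 1. Clcn2, a plasma membrane chloride channel and the most abundant of the chloride channels, was at 106 and 94.7 FPKM (fold 0.891, interval 0.846 to 0.939), and its log2 ratio changed sign with rescaling. Clcn5, an exchanger of endosomes (chrX:7153810-7319358), was at 12.4 and 7.04 FPKM, 1.76-fold lower (interval 1.55 to 2.0). Its kept relatives in endosomes and lysosomes did not differ as far. Clcn3 was at 33.3 and 31.6 (sign changed by rescaling), Clcn4-2 at 19.3 and 20.1 and Clcn7 at 8.73 and 7.10 FPKM. Clcn6, a further relative below 1 FPKM, was 2.19-fold lower at 0.721 and 0.329 (interval 1.04 to 5.40). It rested on about 22 and 10 fragments. Best2 was listed at 0 in both libraries, and Ano1, the calcium-activated chloride channel of interstitial cells of Cajal, was at 0.678 and 0.496 FPKM.

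Crypt and proliferation markers are given here because chloride secretion is a property of crypt cells. Of 12 proliferation markers all 12 were above 0 (background 44.0%) and 4 were 1.5-fold higher (background 4.83%). Their summed values were 174 and 217 FPKM and their median was 0.52, and Mki67 was at 5.60 and 9.45. Of 10 crypt and stem cell markers, which include Slc12a2 itself, 8 were above 0 and none was 1.5-fold apart, with summed values of 200 and 258 FPKM. Olfm4 was at 149 and 202 FPKM, while Lgr5, at 1.91 and 1.01, and Axin2, at 14.8 and 10.4, were below 0. No marker of either list was at 0. The part of these markers in the channel and cotransporter values was not tested.

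Among upstream signals of secretion, the guanylin peptides, which act on Gucy2c to raise cGMP and open CFTR, were lower. Guca2b was at 3381 and 2069 FPKM (fold 0.612, interval 0.595 to 0.629) and Guca2a at 1309 and 689 (fold 0.526, interval 0.502 to 0.552). The prostaglandin receptor gene Ptger4 was at 16.9 and 30.1 FPKM (fold 1.78, interval 1.60 to 1.99). Of the 16 kept genes of that list 6 were above 0 and 10 below (8 and 8 with equal sums), with a median of -0.14. The 2 guanylin genes were 1.5-fold lower (background 7.26%) and 1 gene was 1.5-fold higher (background 4.83%).

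Sodium pump subunits are described by their glycoprotein subunits. Atp1b1, the main one in epithelium (chr1:164437109-164458355), was at 776 and 656 FPKM, 1.18-fold lower (interval 1.16 to 1.21). Atp1b3 was at 15.4 and 14.7 FPKM, with a sign that rescaling changed, and the 5 subunit genes that were not kept, known from neurons, muscle and testis, were at or below 0.375. Of the epithelial sodium channel only the alpha subunit gene was detected. Scnn1a was at 5.92 and 6.01 FPKM (fold 1.01, interval 0.827 to 1.24), and Scnn1b and Scnn1g were listed at 0. Its regulators Tsc22d3, a glucocorticoid-induced gene at 77.5 and 160 FPKM (fold 2.06, interval 1.92 to 2.21), and Sgk1 were the only genes of a list of 12 that were 1.5-fold apart.

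Aquaporins had the lowest median log2 ratio of the role groups, -0.68 over the 6 kept. All 6 were below 0 under the deposited values (background 56.0%) and under each rescaling, where Aqp1 came as near to 0 as -0.03. Over all 11 aquaporins in the tables, the 5 low ones included, the median was -0.20. Aqp3, an aquaglyceroporin of the basolateral membrane that passes water and glycerol (chr4:41092722-41098183), was at 37.1 FPKM in wild type and 13.2 in the knockout. This was 2.82-fold lower (interval 2.41 to 3.34), from about 562 and 206 fragments, and Aqp3 was the only member past 2-fold on the log2(FPKM + 1) scale. Aqp11, an aquaporin of intracellular membranes (chr7:97724006-97738289), was at 93.8 and 50.1 FPKM, 1.87-fold lower (interval 1.77 to 1.98). Aqp8, a water channel that also passes ammonia and hydrogen peroxide (chr7:123462291-123468004), was at 18.7 and 10.5 FPKM, 1.78-fold lower (interval 1.43 to 2.22). Aqp7, a second aquaglyceroporin (chr4:41033074-41048139), was at 14.6 and 9.43 FPKM, 1.55-fold lower (interval 1.30 to 1.84); its log2 ratio of -0.58 fell just short of 1.5-fold on the scale with the added 1. Aqp1, the most abundant and also a gene of endothelium, was at 231 and 199 FPKM (fold 0.861, interval 0.828 to 0.895). Aqp4 at 2.65 and 2.17 rested on about 28 and 24 fragments, and its difference was within counting error (fold 0.818, interval 0.458 to 1.48). Aqp2, Aqp5 and Aqp6 were listed at 0 in both libraries, and Aqp9 and Aqp12 were at or below 0.126 FPKM.

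**Figure D3:**
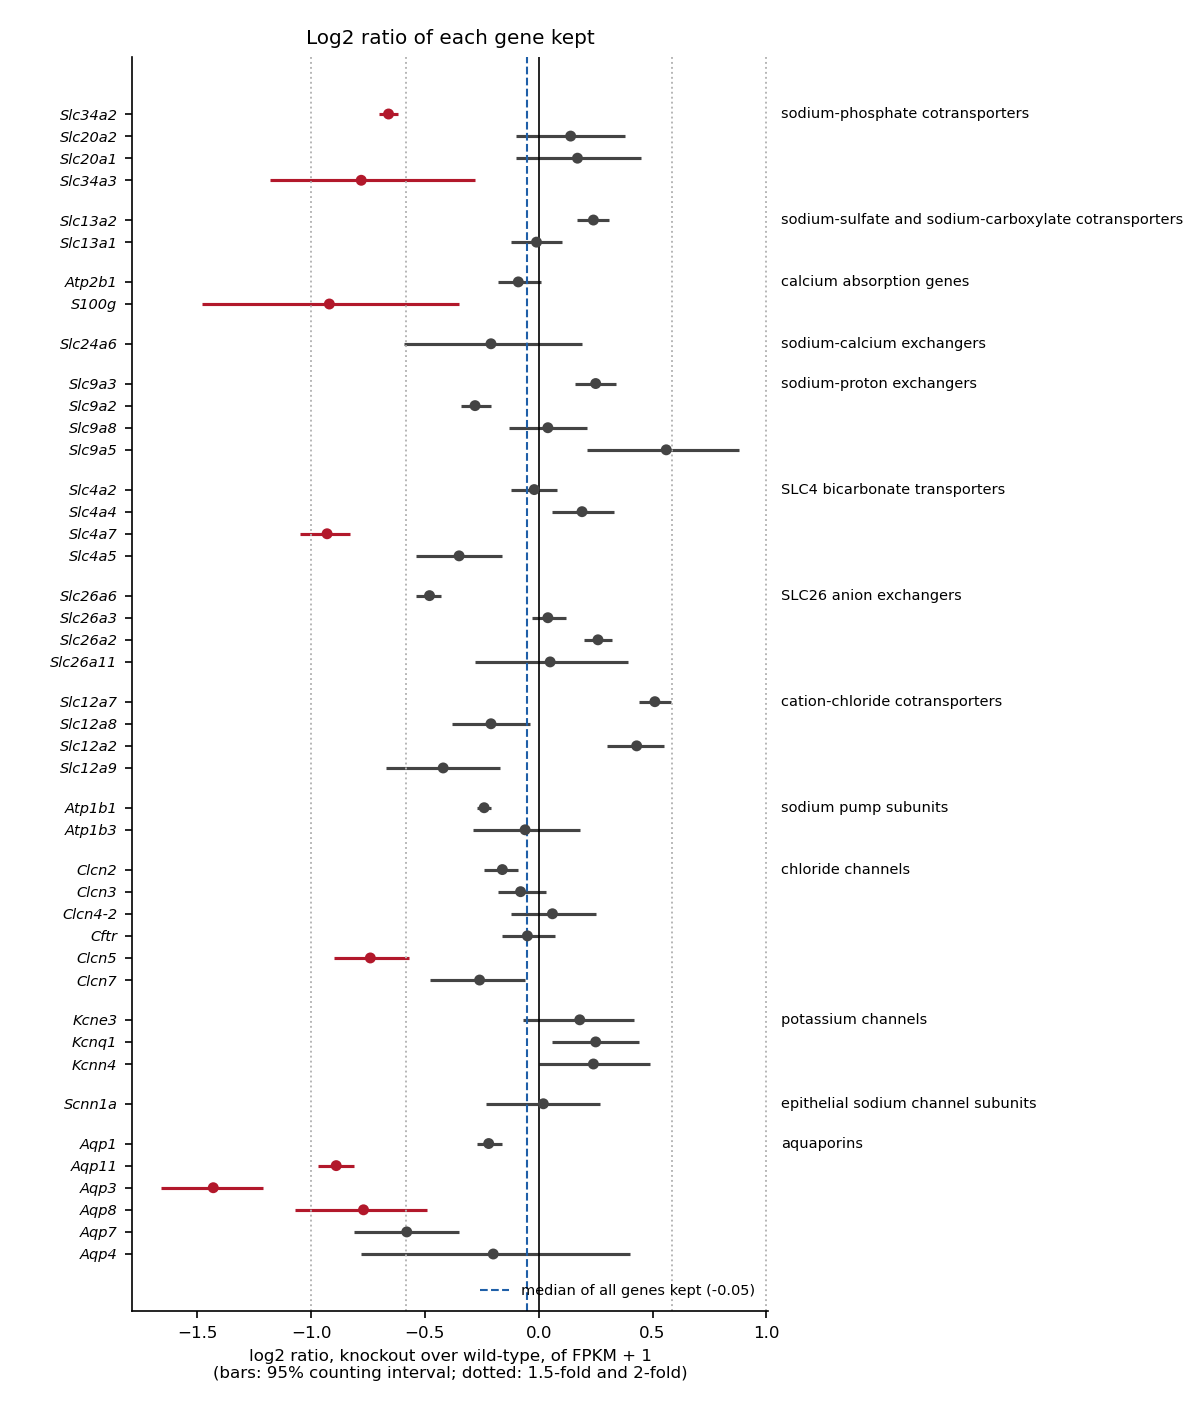
Log2 ratio of knockout over wild-type on the FPKM + 1 scale (x axis) for 43 of the 47 transport genes kept, 1 row per gene and grouped by role; bars are 95% counting intervals, red marks genes 1.5-fold or more apart, dotted lines mark 1.5-fold and 2-fold and the dashed line the median of all genes kept (-0.05). All 8 red genes lie to the left, from Slc34a2 at -0.66 to Aqp3 at -1.43, and all 6 aquaporins lie left of 0.

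Aqp3 and Aqp7 are neighbours on the minus strand of chromosome 4, 44582 bases apart with 0 other listed genes between them. The gene beyond Aqp3, Nol6, was at 4.32 and 5.89 FPKM, and the nearest protein-coding gene beyond Aqp7, Nfx1, at 10.3 and 10.8. Neither of these was lower, but the next gene beyond Nol6, Ube2r2, was at 40.2 and 27.4. Their promoter windows, 250 bases before to 50 after the annotated start, are printed because these neighbours were lower together, from RefSeq on GRCm38.p6, 5′ to 3′ along the gene. Capitals mark the motif TATAAA, the classical core promoter element, and the motif AGGTCA, which many nuclear receptors bind. Each was searched on both strands, so that AGGTCA may appear as TGACCT, and no matches overlap in the windows shown.
Aqp3, chr4:41098134-41098433, minus strand: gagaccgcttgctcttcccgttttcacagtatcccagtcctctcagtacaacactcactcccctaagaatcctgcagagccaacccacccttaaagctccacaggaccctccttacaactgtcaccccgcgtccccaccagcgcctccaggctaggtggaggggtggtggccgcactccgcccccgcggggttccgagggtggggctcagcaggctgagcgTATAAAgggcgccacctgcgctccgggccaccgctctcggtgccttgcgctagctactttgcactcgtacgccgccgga
Aqp7, chr4:41048087-41048386, minus strand: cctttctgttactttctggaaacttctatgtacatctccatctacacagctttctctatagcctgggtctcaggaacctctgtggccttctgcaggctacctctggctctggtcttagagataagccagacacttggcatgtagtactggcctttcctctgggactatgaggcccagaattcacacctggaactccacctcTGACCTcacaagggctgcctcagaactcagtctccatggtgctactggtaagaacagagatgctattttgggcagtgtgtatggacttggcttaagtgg
The Aqp3 window held TATAAA at 1 place and AGGTCA at 0. The Aqp7 window, 1 of the 2 annotated starts, held AGGTCA at 1 place, on the other strand, and TATAAA at 0. The window of the other start, chr4:41047913-41048212, held AGGTCA at 2 places, both on the other strand. TATAAA on either strand occurred in 13.6% of 32851 promoter windows of this length and AGGTCA in 16.3%, and among 94 promoter windows of 73 members in 18.1% and 21.3%.

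Cells other than epithelium also differed between the libraries. Smooth muscle and fibroblast markers were above 0 in 13 of 13, with summed values of 20.6 and 65.5 FPKM, and Acta2 was at 1.30 and 8.04. Endothelial markers were above 0 in 4 of 5, with summed values of 3.19 and 8.64 FPKM, and Tek, the 1 below 0, was at 1.02 and 0.156. Aqp1, which endothelium also expresses, was at 231 and 199 FPKM, and how much of it came from endothelium was not tested. Of the markers of interstitial cells of Cajal only Kit was kept, at 2.75 and 2.79 FPKM. Myeloid markers were above 0 in 9 of 10 (summed 74.3 and 96.0 FPKM, S100a8 and S100a9 at 0), T cell markers in 7 of 12 (461 and 484) and B cell and plasma cell markers in 1 of 7 (256 and 267). That 1 was the J chain gene Igj, at 20.3 and 58.6 FPKM (fold 2.89, interval 2.49 to 3.36). Xbp1, at 154 and 148 FPKM, made up most of the B cell and plasma cell sums. Among other epithelial lineages, Paneth cell markers were above 0 in 7 of 9, tuft cell markers in 5 of 7, villus tip markers in 6 of 8, goblet cell markers in 2 of 7 and enteroendocrine markers in 4 of 12. This goblet count leaves out the symbol Clca1, which was matched to the same annotated gene as Clca3. With Clca1 included, goblet cell markers were above 0 in 3 of 8, and in 6 of 8 with equal sums. With equal sums enteroendocrine markers were above 0 in 7 of 12 and villus tip markers in 8 of 8, and the Paneth and tuft cell counts did not change. The 2 symbols were listed at different levels, Clca1 at 1.86 and 3.41 FPKM and Clca3 at 1089 and 1047. The match by symbol thus does not show that they are 1 gene. Colon markers, of which Hoxd12, Hoxd13 and Prdx6b were at 0 in both libraries, were below 0 in 3 of 3 kept. Markers of enteric neurons and glia all stayed under 1 FPKM, with Gfap and Sox10 at 0. The part of these cells in the transport values was not tested.

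**Figure D4:**
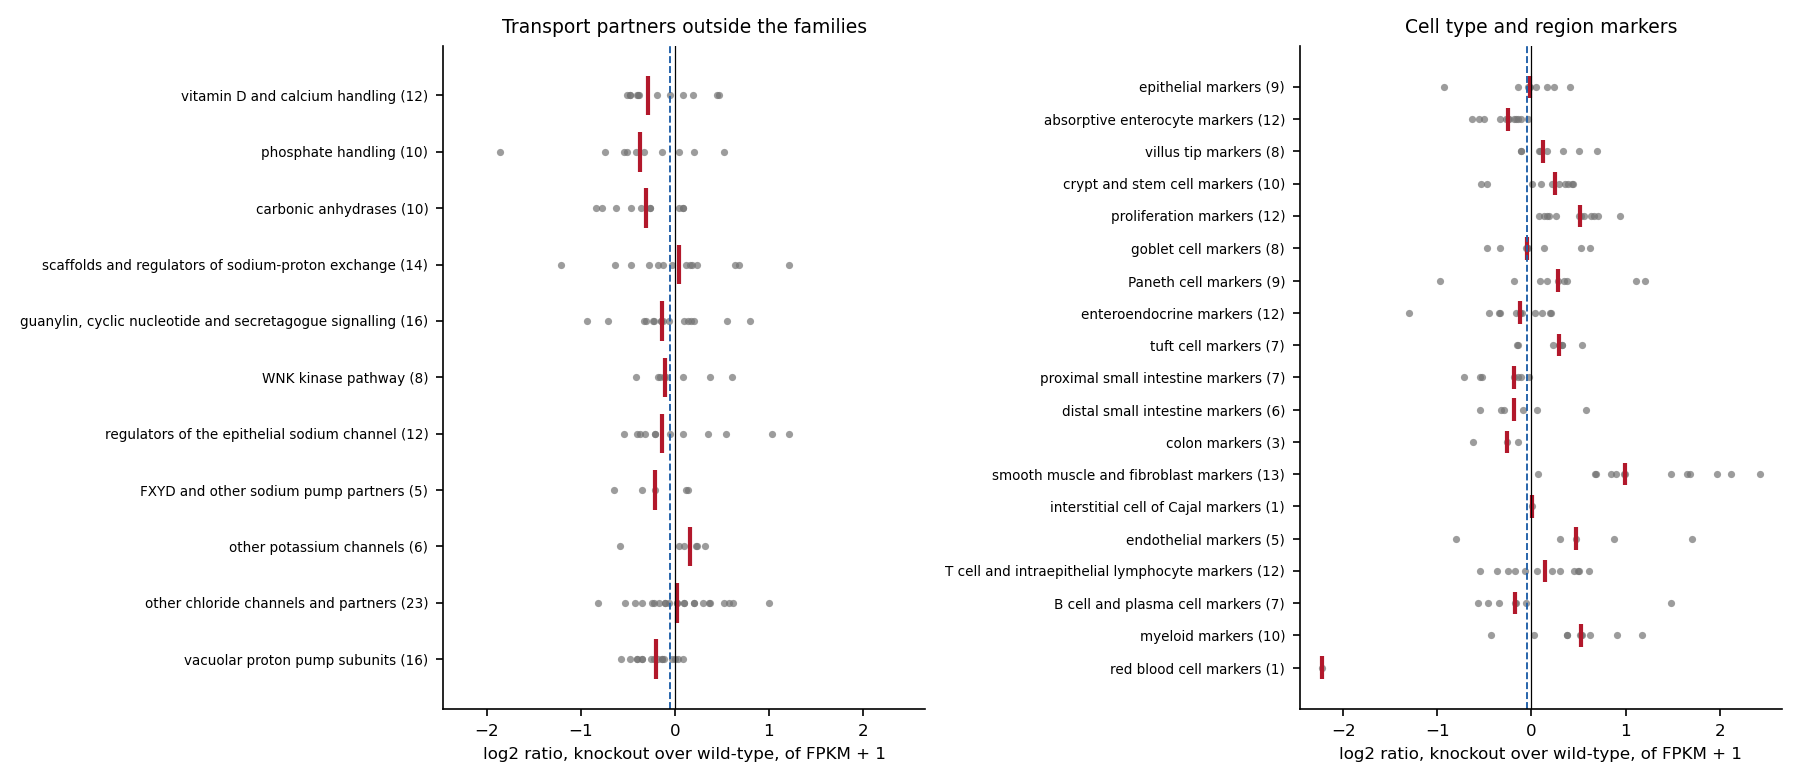
Log2 ratios of knockout over wild-type on the FPKM + 1 scale (x axis) for each kept gene (grey points) of the lists of transport partners (left panel) and of cell type and region markers (right panel), 1 row per list with the number of kept symbols in brackets (the goblet row and the row of other chloride channels include Clca1); red bars are list medians and the dashed line is the median of all genes kept. Phosphate handling has the lowest median of the partner lists (-0.37), and smooth muscle and fibroblast markers stand highest of the marker lists (0.99).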

How the data were processed

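RNA of small intestinal epithelial cells was sequenced from TruSeq stranded mRNA libraries, per the labels' protocols, 1 library per genotype. The authors deposited gene tables in FPKM. Tools listed in the submitters' processing notes are Bowtie2 2.2.3, TopHat2 2.0.13, Cuffnorm 2.2.1 and SAMtools 0.1.19, with the build mm10. FPKM is inferred from Cuffnorm and the values. Annotation, strand setting and library scaling: not given in the sources used here.

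Without counts, and with 1 library per group, no model was fitted. Of 602 genes under 0.1 FPKM in both libraries, 217 shared a knockout to wild-type ratio of 0.963, the relative worth of 1 fragment. With 200 nt taken off the transcript length, 63.3% of 354 low values were within 0.03 of whole fragment numbers, at 0.104 FPKM per fragment over 1 kb in the wild-type library. Fragments were estimated from the median length of annotated GENCODE M21 transcripts (GRCm38), the steps tested on simulated data, and intervals made with scipy 1.17.1. All 96 members matched the annotation, 3 through an older symbol.

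The named genes were the most abundant of each role group, those at least 1.5-fold apart and up to 3 further by log2 ratio; from 31 lists, the most abundant and the largest log2 ratios. The neighbours of Aqp3, the promoter motifs and a few genes set beside a result were chosen after values were seen. A few members are counted but not reported here. Members and lists were chosen with earlier results of these data known. Alternatives were other pseudocounts, filters and scalings, a length trend removed and, added after seeing the data, other transcript lengths.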

Additional observations from a re-analysis of the deposited data

How the results depend on the processing

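Over 8 alternatives the count of members at least 1.5-fold lower ranged from 6 to 9 (8 in the report), while the share of all genes past that fold went from 3.74% with no filter and 4.05% with a pseudocount of 5 FPKM to 9.62% with a pseudocount of 0.1 (7.26% in the report). Aqp3, Aqp8, Aqp11, S100g and Slc4a7 were among the lower members in each. Clcn5 dropped out with a pseudocount of 5 FPKM and with equal sums computed without short and top genes, Slc34a2 under the 3 rescalings and Slc34a3 with a pseudocount of 5 and a minimum of 5 FPKM. Members at least 1.5-fold higher, 0 in the report, were 1 with a pseudocount of 0.1 FPKM (Slc9a5, with 8.07% of all genes), 2 with the knockout scaled to equal sums and 2 to equal upper quartiles (Slc12a7 and Slc9a5), and 3 with equal sums without short and top genes (also Slc12a2); all genes 1.5-fold higher were 7.80%, 7.10% and 9.15% of those kept under the 3 rescalings. At 2-fold, a pseudocount of 0.1 gave 1 higher and 2 lower members, with 2.95% and 3.14% of all genes, and removing the trend with transcript length gave 2 lower, with 1.83%. In the report these were 0 and 1 members, with 1.34% and 2.04%. Counting intervals above 1 went from 9 members to 19 with equal sums and to 14 with equal upper quartiles, while those below 1 went from 18 to 15 under both; shortest or longest transcripts changed neither count. The median of the members went from -0.06 to 0.12 at most, along with that of all genes. Of 338 log2 ratios of 43 named members under the alternatives, 271 stayed within the counting interval, 67 moved beyond it and 0 that were 1.5-fold apart changed sign. The 271 include the values under the 2 changed filters, which leave a log2 ratio as it is. The 0 is not a check of direction for most alternatives. A filter or pseudocount cannot reverse a sign, and rescaling by at most 1.136 cannot undo 1.5-fold. The median of the aquaporins ranged from -0.77 to -0.51, and was -0.20 over all 11 listed. The interval counts and aquaporin results were added after seeing the data. No paired analysis was possible because each genotype has 1 library. For the same reason no library could be left out, and a difference under the counting interval was not detectable at this depth.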

Other observations

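Proton pumps and further channels of the epithelium belong to no comparison above. Of 16 kept subunit genes of the vacuolar proton pump, which acidifies endosomes and lysosomes, 14 were below 0 and 2 above, none 1.5-fold apart, with a median log2 ratio of -0.20; scaled to equal sums, the median was -0.07 and 5 were above 0. Atp6v1b2 was at 62.6 FPKM in wild type and 41.8 in the knockout, and Atp6v0c, the most abundant, at 240 and 188. Of 6 other potassium channel genes kept, 5 were above 0; Kcnk5 was at 56.5 and 66.4 FPKM and Kcnj13 at 5.30 and 3.20. Of 22 other chloride channel genes and partners kept, 12 were above 0 and 10 below, leaving out Clca1 as above. Ano6, a phospholipid scramblase and ion channel, was at 237 and 134 FPKM (fold 0.563, interval 0.544 to 0.583), and the goblet cell gene Clca3, the most abundant, at 1089 and 1047. Of 5 kept partners of the sodium pump 3 were below 0, with Fxyd3 at 27.6 and 23.8 FPKM.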
